A study of Mus musculus with 6 samples.

Results

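The genes described here are the D cyclins *Ccnd1*, *Ccnd2* and *Ccnd3*, the CIP/KIP inhibitors *Cdkn1a*, *Cdkn1b* and *Cdkn1c*, the INK4 inhibitors *Cdkn2a*, *Cdkn2b* and *Cdkn2c*, and *Myc*. They were chosen by gene symbol, with earlier results of these data known, and are 10 of the 25140 genes in the count table. Expression was measured by RNA-seq of poly(A) mRNA, as counts of reads per gene, in 3 vehicle and 3 TGFβ libraries of C57BL/6 mouse primary cardiac fibroblasts from the adult heart, at passage 1. All cells were grown in DMEM with 25 mM glucose and 10% FBS and moved to 1% FBS before TGFβ (10 ng/ml) or vehicle was given for 24 h. The sample labels give 16 h of low serum before treatment and the methods of the study 24 h, and the results of the study speak of mouse embryonic fibroblasts where its methods and the labels name cardiac fibroblasts. The methods of the study give 3 biological replicates, and the labels number the samples within each group without naming the animals or cultures. The p-values therefore set the difference between groups against the spread between these samples.

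D cyclins bind and activate the kinases CDK4 and CDK6, which phosphorylate the retinoblastoma protein and so release E2F factors to start the genes of S phase. INK4 proteins bind CDK4 and CDK6 and keep D cyclins off them, while CIP/KIP proteins bind complexes of cyclin and CDK, above all those of CDK2. MYC is a transcription factor that drives growth and ribosome production, and repression of *Myc* together with induction of the inhibitors p15 (*Cdkn2b*) and p21 (*Cdkn1a*) is the textbook route by which TGFβ arrests epithelial cells.

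With TGFβ, the mRNA of *Cdkn2b*, *Cdkn2a* and *Cdkn1a* rose, that of *Ccnd1*, *Cdkn1c* and *Ccnd3* fell, and *Ccnd2*, *Cdkn1b*, *Cdkn2c* and *Myc* did not pass the test. The rises were 2.00-fold for *Cdkn2b*, 1.83-fold for *Cdkn2a* and 1.49-fold for *Cdkn1a*, and the levels of *Ccnd1* and *Cdkn1c* with TGFβ were 0.437 and 0.386 times those with vehicle. Of the 10 genes, 6 passed edgeR's quasi-likelihood test at a Benjamini-Hochberg adjusted p of 0.05, beside 40.7% of the 14334 genes tested. Of these, 3 were higher, beside 20.5% of all genes tested, and 3 were lower, beside 20.1%. The groups did not overlap for the same 6 genes, beside 53.3% of all genes. The response was therefore broad, and the median log2 fold change was -0.07 over the 10 genes and -0.00 over all genes tested.

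The libraries held 27851677 to 31072338 counts. Values below are CPM, the counts scaled to a common library size after TMM normalization, and within a group the libraries are given from the highest total count to the lowest. Among genes known to respond to TGFβ in fibroblasts, *Postn* (log2 fold change 1.55), *Acta2* (1.03) and *Skil* (0.94) rose, and *Smad7* did not pass (0.02). The fibroblast genes *Col1a1* and *Col1a2* were at 19992 ± 1515 and 13656 ± 884 CPM (SD, n = 3) with vehicle. Neither passed, with log2 fold changes of 0.23 (adjusted p = 0.0550) and 0.13 (adjusted p = 0.196). The other 4 of 6 fibroblast markers, *Pdgfra* (-1.37), *Dcn* (-0.52), *Lum* (-0.96) and *Tcf21* (-1.05), were lower with TGFβ, beside 20.1% of all genes tested. Summed endothelial markers (*Cdh5* and 4 others) ranged from 380 to 579 CPM with vehicle and 351 to 470 with TGFβ, and summed leukocyte markers (*Lyz2* and 4 others) from 238 to 340 and 207 to 308, with no member of either list past the test. The same held for the 4 mesothelial markers, at 23.0 to 62.2 and 14.8 to 34.2 CPM, and for the 3 of 5 cardiomyocyte markers that were tested. The 5 cardiomyocyte markers summed to 38.4 to 59.5 CPM with vehicle and 27.3 to 40.5 CPM with TGFβ, most of it *Tnnt2* (46.7 ± 10.5 and 34.0 ± 6.62 CPM, log2 fold change -0.46, adjusted p = 0.0822), while *Myh6* and *Actn2*, too low to test, stood at 0.25 ± 0.24 and 0.08 ± 0.02 CPM with vehicle. Summed smooth muscle and pericyte markers ranged from 151 to 178 CPM with vehicle and from 207 to 260 CPM with TGFβ, without overlap. Of these 6 markers, 3 were higher (*Cnn1*, *Cspg4* and *Smtn*), beside 20.5% of all genes tested, and 0 were lower. *Myh11*, at 27.8 ± 4.21 and 23.3 ± 4.39 CPM (log2 fold change -0.26), *Rgs5* (0.15) and *Kcnj8* (0.20) did not pass. Whether the 3 rises came from smooth muscle cells and pericytes or from the fibroblasts was not tested. The part of these other cells in the results was not tested, and in bulk RNA fewer cells of a type cannot be told apart from less RNA per cell.

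*Ccnd1* encodes cyclin D1, the D cyclin best known as a sensor of growth factors. It is found on chromosome 7, minus strand, at 144929931 to 144939925 (GRCm38, also called mm10, GENCODE M21 annotation, as for all genes below). *Ccnd1* (ENSMUSG00000070348) stood at 82.5, 69.9 and 63.9 CPM with vehicle and at 28.3, 33.8 and 32.5 CPM with TGFβ. Every TGFβ library was below every vehicle library by a wide gap. For TGFβ over vehicle the log2 fold change was -1.19 (SE 0.10, 95% interval -1.44 to -0.95), with an adjusted p of 0.000118, and 96.8% of tested genes had a higher log2 fold change. Exons of *LTO1* on the opposite strand share 1100 bases with *Ccnd1*, and whether the counting used strand is not given in the sources used here. *LTO1* had 30.1% as many counts as *Ccnd1* and was lower too (log2 fold change -0.31, adjusted p = 0.00867).

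*Ccnd2*, which encodes cyclin D2, spans 127125162 to 127152193 of chromosome 6, minus strand. *Ccnd2* (ENSMUSG00000000184) was at 598, 483 and 552 CPM with vehicle and at 484, 442 and 546 CPM with TGFβ. The groups overlapped, since the second vehicle library was below the first and the last TGFβ libraries. The log2 fold change was -0.15 (SE 0.10, adjusted p = 0.266), with a 95% interval from -0.38 to 0.08, so a fall of the size seen for *Ccnd1* lies outside it.

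*Ccnd3*, which encodes cyclin D3, spans 47505051 to 47599691 of chromosome 17, plus strand. *Ccnd3* (ENSMUSG00000034165) was at 98.9, 85.4 and 97.6 CPM with vehicle and at 81.9, 81.1 and 79.1 CPM with TGFβ. The TGFβ libraries lay close together and just under the lowest vehicle library. Its log2 fold change was -0.22 (SE 0.06, 95% interval -0.36 to -0.08), with an adjusted p of 0.0207. This call was lost when any of 3 libraries was left out alone, with an adjusted p of 0.0668 without the vehicle library of 31072338 counts, 0.0756 without that of 29296570 and 0.0673 without the TGFβ library of 27851677. *Ccnd3* shares 361 exon bases with *Bysl* on the opposite strand, which had 41.0% as many counts and was higher with TGFβ (log2 fold change 0.39, adjusted p = 0.000666).

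**Figure D1:**
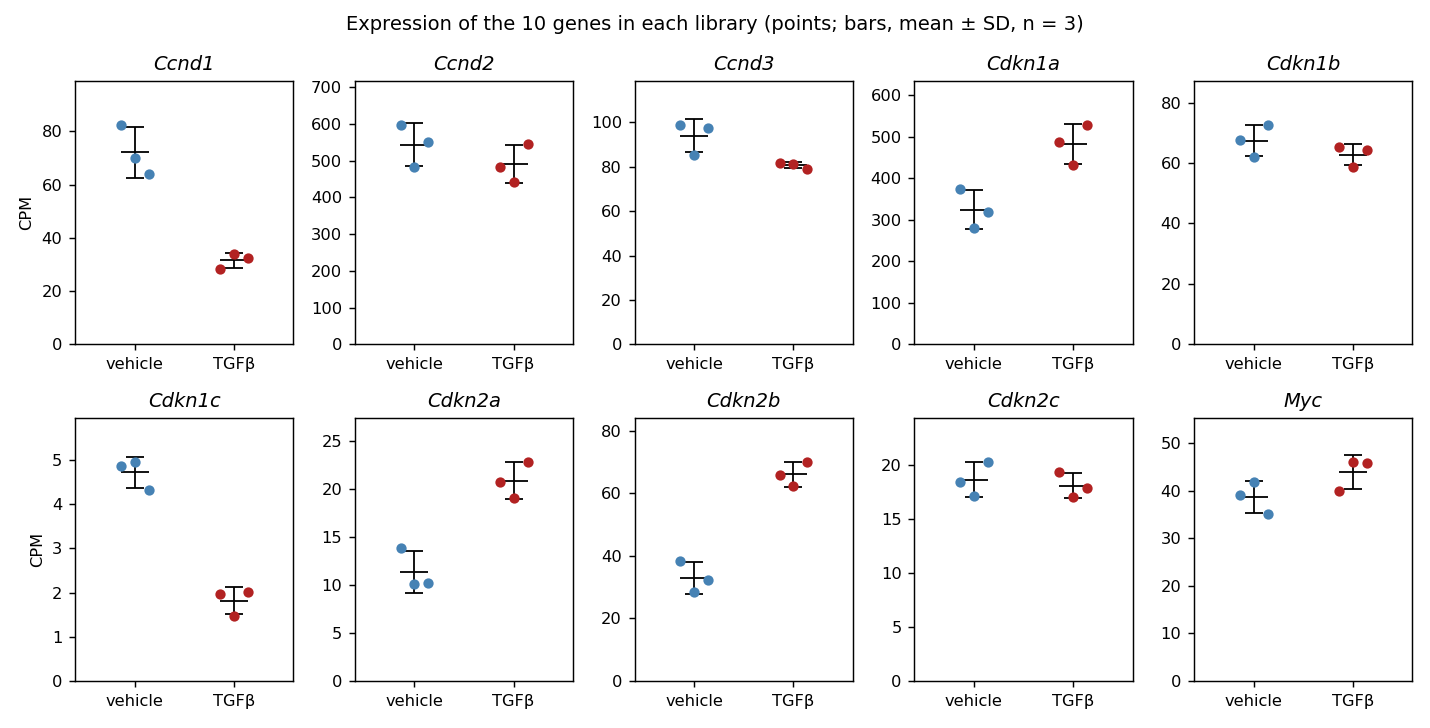
Expression in CPM (vertical axes, each starting at 0 with its own scale) of each of the 10 genes, with 1 point per library and bars at the mean ± SD of 3 libraries. The groups are separate for *Ccnd1*, *Ccnd3*, *Cdkn1a*, *Cdkn1c*, *Cdkn2a* and *Cdkn2b* and overlap for *Ccnd2*, *Cdkn1b*, *Cdkn2c* and *Myc*.

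Compared between genes per kb of exon, the D cyclin mRNA was mostly *Ccnd2* in every library. The share of *Ccnd1* in the family was 19.0%, 19.6% and 16.3% with vehicle and 8.98%, 11.3% and 9.32% with TGFβ. The 2 groups were well apart, and the mean share went from 18.3 ± 1.76% to 9.88 ± 1.27% (SD, n = 3), a difference of -8.39 percentage points (two-sided exact permutation test, p = 0.1, which is the lowest p possible with 3 libraries a group). In counts with no length correction the difference was -4.91 percentage points. The share of *Ccnd2* went from 68.9 ± 1.40% to 76.5 ± 2.24% without overlap, and that of *Ccnd3* was 12.8 ± 0.57% and 13.6 ± 1.24%, with overlap. A share also moves when another gene of the family changes, and the level of *Ccnd2* itself did not pass (log2 fold change -0.15). Summed over the 3 D cyclins, the level per kb went from 83.9 ± 8.23 to 68.1 ± 5.38 CPM without overlap, but in CPM with no length correction the groups overlapped, at 638 to 779 with vehicle and 557 to 658 with TGFβ.

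*Cdkn2b* encodes p15Ink4b, an inhibitor of CDK4 and CDK6. It is found on chromosome 4, minus strand, at 89306299 to 89311039, with 11.6 kb between it and *Cdkn2a*. The 250 bases before its RefSeq start (build GRCm38.p6, chr4:89311033-89311282, minus strand, 5′ to 3′) are shown because this gene had the largest rise of the 10. Capitals here and in the promoters below mark matches, on either strand, to CAGAC (a core of SMAD binding elements), GGGCGG (the core of SP1 sites), CACGTG (the E-box of MYC and MAX) or the p53 half-site, none of which overlap each other.
Cdkn2b: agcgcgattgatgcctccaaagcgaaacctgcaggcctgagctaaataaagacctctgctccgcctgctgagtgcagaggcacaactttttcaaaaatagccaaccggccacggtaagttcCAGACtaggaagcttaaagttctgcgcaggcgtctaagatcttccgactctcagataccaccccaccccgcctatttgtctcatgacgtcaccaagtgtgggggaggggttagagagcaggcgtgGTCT
CAGAC matched from base -129 to -125 before the start and again across it from -4 to 1, and GGGCGG from 5 to 10 after it. From 250 bases before the start to 50 after it, 49.6% of 32851 RefSeq windows hold CAGAC, 35.7% GGGCGG, 7.15% CACGTG and 8.36% the p53 half-site, and a match is a description of these letters only. Among promoters not shown, CAGAC also matched 2 times at the start 47505051 of *Ccnd3*, which fell. It matched 1 time at the start 109665372 of *Cdkn2c*, which did not pass, and 0 times at that of *Cdkn1b*. At the other starts of *Ccnd3* (47593467) and *Cdkn2c* (109666756) it matched 0 times. CACGTG matched only at the start 109665372 of *Cdkn2c*, from 35 to 40 after it. The promoters of *Ccnd1*, *Ccnd2*, *Cdkn1c* and *Myc* were not available and so were not searched.

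*Cdkn2b* (ENSMUSG00000073802) was at 38.5, 28.3 and 32.3 CPM with vehicle and at 65.7, 62.1 and 70.1 CPM with TGFβ. The lowest TGFβ library was far above the highest vehicle library. On the log2 scale the change was 1.00 (SE 0.10, 95% interval 0.75 to 1.24), with an adjusted p of 0.000287, and 2.55% of tested genes had a higher log2 fold change.

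*Cdkn2a* is 1 row of the table for 2 proteins made from different first exons, p16Ink4a, which inhibits CDK4 and CDK6, and p19Arf, which holds back MDM2 and so protects p53. Its counts cannot be divided between them. The gene spans 89274471 to 89294653 of chromosome 4, minus strand, and the promoters before both of its RefSeq starts are shown because the counts do not tell its transcripts apart. The first window is chr4:89294620-89294869, before the start of the longer gene model at 89294619, and the other is chr4:89282193-89282442, before the start at 89282192, both on the minus strand.
Cdkn2a at 89294619: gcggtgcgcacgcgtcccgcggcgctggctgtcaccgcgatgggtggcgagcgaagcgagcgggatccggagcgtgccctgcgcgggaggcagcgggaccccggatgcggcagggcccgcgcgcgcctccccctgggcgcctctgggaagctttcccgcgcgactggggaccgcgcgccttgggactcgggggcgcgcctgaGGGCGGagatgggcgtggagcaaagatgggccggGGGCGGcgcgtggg
Cdkn2a at 89282192: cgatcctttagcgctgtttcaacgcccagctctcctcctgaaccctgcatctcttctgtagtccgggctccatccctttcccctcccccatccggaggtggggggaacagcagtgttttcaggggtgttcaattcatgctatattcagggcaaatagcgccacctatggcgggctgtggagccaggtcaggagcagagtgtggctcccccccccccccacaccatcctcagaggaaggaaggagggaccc
The upstream window held GGGCGG from -48 to -43, -14 to -9 and 32 to 37, and the downstream one held it from 24 to 29. No other motif of the search was in either window.

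*Cdkn2a* (ENSMUSG00000044303) was at 13.9, 10.1 and 10.1 CPM with vehicle and at 20.7, 19.0 and 22.8 CPM with TGFβ. All TGFβ libraries were above all vehicle libraries. The vehicle library with the most counts was the highest of its group, as it also was for *Cdkn2b* and *Cdkn1a*. With TGFβ the library with the fewest counts was the highest for each of these genes. The same libraries were the highest of their groups for all 4 mesothelial markers, such as *Upk3b* (53.4 and 24.6 CPM) and *Wt1* (6.76 and 7.27 CPM). Whether the mix of cells had a part in this order was not tested. For TGFβ over vehicle the log2 fold change was 0.87 (SE 0.13, 95% interval 0.56 to 1.18), with an adjusted p of 0.00159.

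*Cdkn2c*, which encodes p18Ink4c, spans 109660876 to 109667189 of the same chromosome and strand, 20.4 Mb from *Cdkn2a*. *Cdkn2c* (ENSMUSG00000028551) was at 18.4, 17.1 and 20.3 CPM with vehicle and at 19.3, 17.0 and 17.9 CPM with TGFβ. The groups overlapped almost completely. The log2 fold change was -0.04 (SE 0.08, adjusted p = 0.695), and its 95% interval of -0.23 to 0.14 does not reach the rises of *Cdkn2b* and *Cdkn2a*.

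Within the mRNA per kb of these 3 INK4 genes, without the remaining INK4 gene *Cdkn2d*, *Cdkn2b* made up 59.7%, 57.6% and 58.9% with vehicle and 65.5%, 66.5% and 65.8% with TGFβ. Its mean share was 58.7 ± 1.07% and 66.0 ± 0.46%, a difference of 7.24 percentage points with separate groups (two-sided exact permutation test, p = 0.1). The share of *Cdkn2c* went from 17.3 ± 2.26% to 9.36 ± 0.64% without overlap, while *Cdkn2a* held 23.9 ± 1.81% and 24.7 ± 0.69%, with overlap. The level of *Cdkn2c* itself did not pass (log2 fold change -0.04). With *Cdkn2d* counted in, *Cdkn2b* held 50.2 ± 1.86% with vehicle and 61.0 ± 0.31% with TGFβ, a difference of 10.8 percentage points, and *Cdkn2d* 14.5 ± 1.62% and 7.56 ± 0.81%. The level of *Cdkn2d* itself did not pass either (log2 fold change -0.21). Summed over the 3 genes, the level per kb went from 40.4 ± 5.58 to 72.0 ± 4.66 CPM.

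*Cdkn1a* encodes p21Cip1, an inhibitor of CDK2 and a classic target of p53. It is found on chromosome 17, plus strand, at 29090976 to 29100727, and RefSeq gives it 2 starts, at 29090979 and 29093769. The 250 bases before each (chr17:29090729-29090978 and chr17:29093519-29093768, plus strand) are shown as the promoters of the most abundant of the genes that rose.
Cdkn1a at 29090979: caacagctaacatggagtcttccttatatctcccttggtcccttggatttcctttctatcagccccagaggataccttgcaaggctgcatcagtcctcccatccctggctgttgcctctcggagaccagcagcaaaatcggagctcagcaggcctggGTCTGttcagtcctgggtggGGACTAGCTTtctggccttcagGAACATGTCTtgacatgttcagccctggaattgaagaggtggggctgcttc
Cdkn1a at 29093769: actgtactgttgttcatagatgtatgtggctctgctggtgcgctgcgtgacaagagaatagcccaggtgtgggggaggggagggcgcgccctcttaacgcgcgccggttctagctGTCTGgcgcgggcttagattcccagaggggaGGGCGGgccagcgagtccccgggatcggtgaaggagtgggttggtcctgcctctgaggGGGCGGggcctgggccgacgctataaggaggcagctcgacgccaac
The upstream window held CAGAC from -93 to -89 and the p53 half-site from -73 to -64 and from -51 to -42. The downstream window held CAGAC from -135 to -131 and GGGCGG from -104 to -99 and -46 to -41, and no p53 half-site.

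*Cdkn1a* (ENSMUSG00000023067) was at 374, 281 and 320 CPM with vehicle and at 488, 431 and 529 CPM with TGFβ. The groups did not overlap, and the library with the most counts was the highest with vehicle, while that with the fewest was the highest with TGFβ. Its log2 fold change was 0.57 (SE 0.11, 95% interval 0.31 to 0.83), with an adjusted p of 0.00525, and 6.03% of tested genes had a higher log2 fold change.

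*Cdkn1b* encodes p27Kip1, whose amount is set largely by protein turnover, and spans 134920401 to 134925513 of chromosome 6, plus strand. *Cdkn1b* (ENSMUSG00000003031) was at 67.6, 62.1 and 72.6 CPM with vehicle and at 65.2, 58.7 and 64.2 CPM with TGFβ. The groups overlapped. On the log2 scale the change was -0.10 (SE 0.07, 95% interval -0.26 to 0.05, adjusted p = 0.252).

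*Cdkn1c* encodes p57Kip2, is imprinted and expressed from the maternal allele, and spans 143458339 to 143461050 of chromosome 7, minus strand, 1.47 Mb from *Ccnd1*. *Cdkn1c* (ENSMUSG00000037664) was the least abundant of the 10, with 155, 148 and 128 counts with vehicle and 55, 42 and 55 with TGFβ. In CPM these were 4.87, 4.96 and 4.32 with vehicle and 1.97, 1.47 and 2.01 with TGFβ. The groups were far apart in spite of the low counts. For TGFβ over vehicle the log2 fold change was -1.38 (SE 0.15, 95% interval -1.73 to -1.02), with an adjusted p of 0.000373, and 97.7% of tested genes had a higher log2 fold change.

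Of the 3 CIP/KIP genes, 1 thus rose, 1 fell and 1 did not pass, beside 20.5% of all genes tested higher and 20.1% lower. Per kb, *Cdkn1a* held 85.9%, 83.1% and 83.3% of the family's mRNA with vehicle and 90.0%, 89.9% and 90.8% with TGFβ. The mean share went from 84.1 ± 1.58% to 90.2 ± 0.50% with separate groups, a difference of 6.13 percentage points (two-sided exact permutation test, p = 0.1), or 4.07 per kb of the longest transcript. *Cdkn1b* went from 13.7 ± 1.41% to 9.18 ± 0.51% and *Cdkn1c* from 2.16 ± 0.35% to 0.59 ± 0.05% of the family, both without overlap. The level of *Cdkn1b* itself did not pass (log2 fold change -0.10). The summed CIP/KIP level went from 109 ± 13.7 to 151 ± 14.6 CPM per kb.

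**Figure D2:**
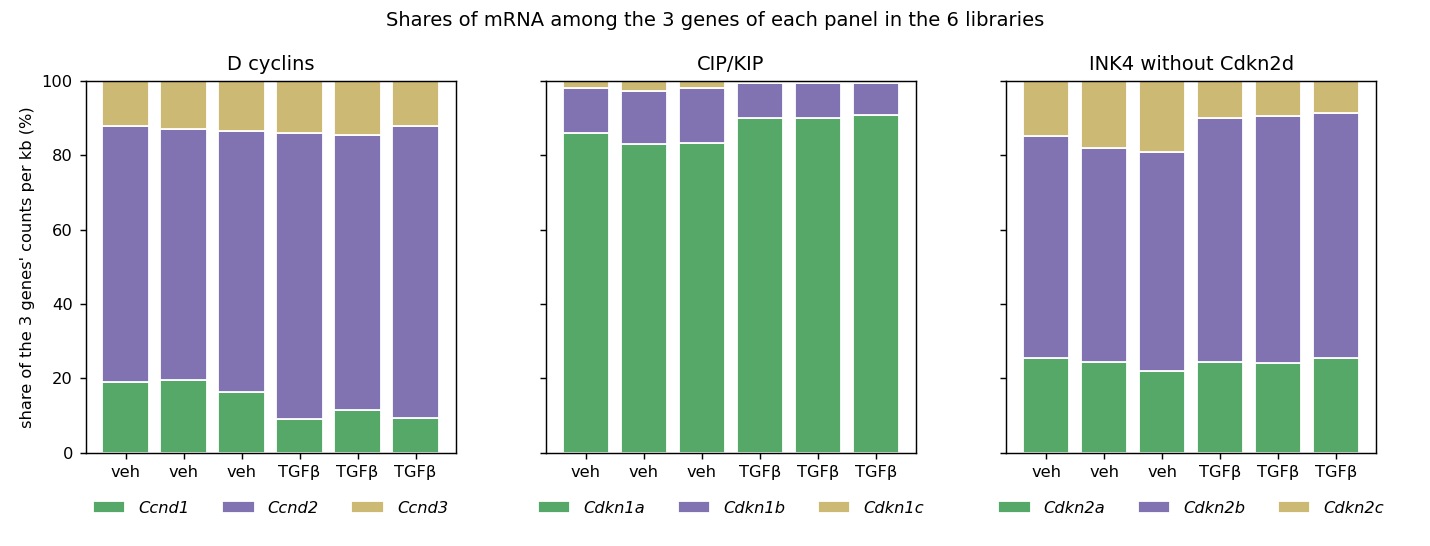
Share of the counts per kb of exon (vertical axis, percent) taken by each of 3 D cyclins, 3 CIP/KIP genes and 3 INK4 genes (*Cdkn2d* left out) in the 6 libraries, stacked to 100% in each panel, with the 3 vehicle libraries on the left of each panel. With TGFβ the *Ccnd1* share was lower (18.3% to 9.88%), and the shares of *Cdkn1a* (84.1% to 90.2%) and *Cdkn2b* (58.7% to 66.0%) were higher.

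*Myc* spans 61985391 to 61990374 of chromosome 15, plus strand. *Myc* (ENSMUSG00000022346) was at 39.1, 41.8 and 35.2 CPM with vehicle and at 39.9, 46.1 and 45.9 CPM with TGFβ. The lowest TGFβ library lay between the vehicle libraries, and the other 2 were above all of them. The log2 fold change was 0.19 (SE 0.08), with a 95% interval from -0.00 to 0.37 whose lower end is at no change. The adjusted p of 0.102 did not pass, but without the TGFβ library of 28894151 counts the log2 fold change was 0.25 and passed (adjusted p = 0.0473).

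The genes whose log2 CPM followed *Myc* most closely over the 6 libraries were *2900076A07Rik* (Pearson r = 0.993), *Gm2308* (r = 0.993) and *Nol12* (r = 0.988), all 3 short of the test for TGFβ. These are descriptions over 6 libraries that share the treatment, and 188 genes had an r above 0.9. Among the other 9 genes, r with *Myc* ran from -0.88 for *Cdkn1b* to 0.66 for *Cdkn2a*.

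**Figure D3:**
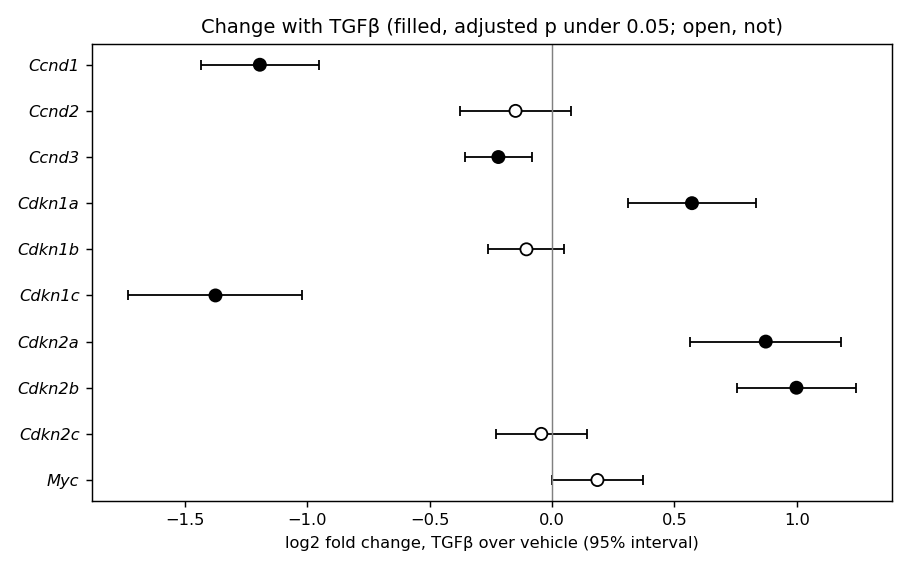
Log2 fold change of TGFβ over vehicle (horizontal axis) with its 95% interval for the 10 genes, filled where the adjusted p was under 0.05. The 3 rises run from 0.57 to 1.00 and the 3 falls from -1.38 to -0.22, and the interval of *Myc* starts at -0.00.

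In vehicle, the order of the levels per kb of exon was *Cdkn1a* (91.4 ± 13.2 CPM per kb, SD, n = 3), *Ccnd2* (57.8 ± 6.16), *Cdkn2b* (23.7 ± 3.70), *Ccnd1* (15.3 ± 2.01), *Cdkn1b* (14.8 ± 1.15), *Myc* (14.2 ± 1.22), *Ccnd3* (10.7 ± 0.85), *Cdkn2a* (9.70 ± 1.84), *Cdkn2c* (6.93 ± 0.59) and *Cdkn1c* (2.31 ± 0.17). The libraries of *Ccnd1*, *Cdkn1b* and *Myc* overlapped, as did those of *Ccnd3* and *Cdkn2a*. With TGFβ the order of the levels was *Cdkn1a* (136 ± 13.8 CPM per kb), *Ccnd2* (52.2 ± 5.56), *Cdkn2b* (47.5 ± 2.87), *Cdkn2a* (17.8 ± 1.64), *Myc* (16.2 ± 1.30), *Cdkn1b* (13.8 ± 0.77), *Ccnd3* (9.20 ± 0.17), *Cdkn2c* (6.73 ± 0.43), *Ccnd1* (6.69 ± 0.62) and *Cdkn1c* (0.89 ± 0.15). The libraries overlapped between *Ccnd2* and *Cdkn2b*, between *Cdkn2a* and *Myc* and between *Cdkn2c* and *Ccnd1*. *Cdkn2a* went from place 8 to 4 and *Ccnd1* from 4 to 9, where neighbours on both sides of the change overlapped. Places depend on the length used. Per kb of the longest transcript *Ccnd1* went from place 5 to 8, *Cdkn2a* again from 8 to 4, *Ccnd3* stood in place 3 with vehicle (24.4 ± 1.93 CPM per kb), and *Cdkn2b* and *Cdkn1b* were in places 4 and 7.

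Around these genes, lists of the wider pathway, also chosen with earlier results of these data known, were counted in the same fit. Of 23 kinases with their cyclins and regulators, E cyclins, pocket proteins, and E2F factors with their partners, 3 were higher, 5 lower and 15 did not pass, beside 20.5% higher and 20.1% lower of all genes tested, with a median log2 fold change of -0.10. The lower ones were *E2f8* (-0.89), *E2f7* (-0.61), both repressors made in S phase, *Ccne2* (-0.73) and *Ccne1* (-0.45), the E cyclins that follow the D cyclins, and their kinase *Cdk2* (-0.24). Among them *E2f8*, *E2f7* and *Ccne2* were at low levels with vehicle (2.32 ± 0.31, 2.82 ± 0.17 and 2.57 ± 0.44 CPM). The higher ones were *E2f5* (0.43), and *Cdk7* (0.24) and *Mnat1* (0.21) of the CDK-activating kinase. *Ccnh*, of the same kinase, did not pass (-0.06, adjusted p = 0.498). The other E2F factors, *E2f1* (-0.10), *E2f2* (-0.29), *E2f3* (0.00), *E2f4* (-0.07) and *E2f6* (-0.04), did not pass either. The partners of the D cyclins, *Cdk4* (log2 fold change 0.03) and *Cdk6* (-0.23, adjusted p = 0.0804), their substrate *Rb1* (0.08) and the INK4 gene *Cdkn2d* (-0.21, adjusted p = 0.0530) did not pass.

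Of 12 genes of S phase and mitosis, 7 were lower (beside 20.1% of all genes), 0 higher (20.5%) and 5 did not pass. The median log2 fold change was -0.53, and among the falls were *Mki67* (-0.99), *Ccnb2* (-0.97) and *Ccna2* (-0.82). The fall was not shared by the whole list. *Cdk1* (-0.37), *Mcm2* (-0.15), *Pcna* (-0.08), *Rrm2* (0.05) and *Mcm6* (0.11) were the 5 that did not pass. Of the 75-base windows of *Pcna*, 23.7% also occur in other genes, as do 35.2% of those of *Ccnb1* (-0.69), which was among the falls. The summed CPM of the 12 genes, 237 ± 13.5 with vehicle, came to 179 ± 18.2 under TGFβ (SD, n = 3), without overlap. Its part in the values of the 10 genes was not tested. Of 15 genes of p53 and its targets, the group to which *Cdkn1a* also belongs, 6 were higher, led by *Perp* (0.75), *Tnfrsf10b* (0.61) and *Mdm2* (0.56), 3 were lower (*Btg2*, -0.80, *Sesn1*, -0.58, and *Gadd45a*, -0.24) and 6 did not pass, beside 20.5% and 20.1% of all genes higher and lower. *Perp* was at a low level, with 1.82 ± 0.43 CPM with vehicle and 3.07 ± 0.20 with TGFβ. *Trp53* itself did not pass (log2 fold change -0.04, adjusted p = 0.512), and the median of the list was 0.11.

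Of 12 partners and competitors of MYC, 5 were lower, 1 higher and 6 did not pass, so 6 were called beside 40.7% of all genes (20.1% lower and 20.5% higher), with a median log2 fold change of -0.17. The one higher was *Max* (0.21), the partner of MYC, and the lower ones were *Mxd3* (-1.35), *Mxd4* (-0.30) and *Mnt* (-0.21), which compete with MYC for MAX, *Mycn* (-0.99), its neuronal relative, and *Mlxip* (-0.13). Other competitors of MYC, *Mxd1* (-0.24), *Mxi1* (-0.05) and *Mga* (-0.03), were among the 6 that did not pass. The level of *Mxd3* was low, at 1.35 ± 0.25 CPM with vehicle and 0.53 ± 0.15 with TGFβ. Of 16 MYC targets in growth and ribosome production, 13 were higher (beside 20.5% of all genes), 0 lower (20.1%) and 3 did not pass (*Cdk4*, *Npm1* and *Nolc1*), with a median log2 fold change of 0.34. The largest were *Odc1* (0.71), the first enzyme of polyamine synthesis, *Nop56* (0.48), of the small nucleolar particles, and *Cad* (0.46), of pyrimidine synthesis. Of the 75-base windows of *Odc1*, 30.5% also occur in other genes, as do 14.4% of those of *Nop56* and 30.9% of those of *Npm1*. Of 12 genes for the turnover of D cyclins, p27 and MYC, 2 were higher (*Fbxw7*, 0.74, which marks MYC and cyclin E for degradation, and *Rbx1*, 0.12), 4 lower (*Usp2*, -0.42, *Usp28*, -0.33, *Cul1*, -0.20, and *Cks1b*, -0.20) and 6 did not pass, among them *Skp2* (-0.01), which targets p27. The 6 called of these 12 stand beside 40.7% of all genes.

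**Figure D4:**
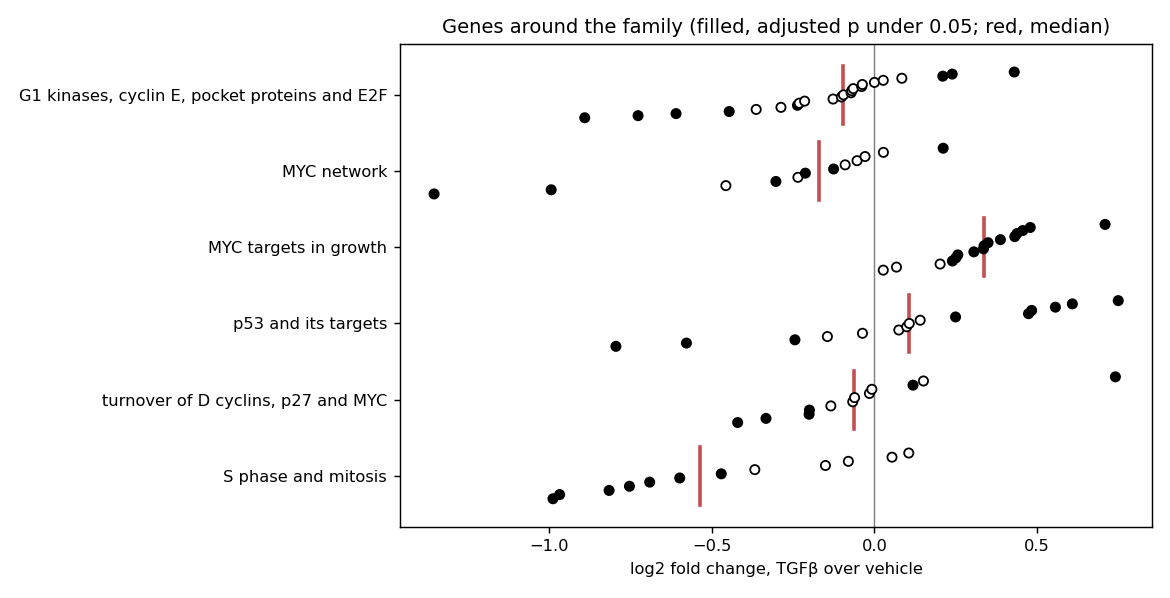
Log2 fold change of TGFβ over vehicle (horizontal axis) for each gene of the 6 pathway lists, filled where the adjusted p was under 0.05, with a red line at the median of each list. The medians run from -0.53 for S phase and mitosis to 0.34 for MYC targets in growth.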

How the data were processed

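Reads of 75 bases, single-end, came from stranded poly(A) libraries and were aligned by the authors to mm10, and the aligner, the counter and its use of strand are not given in the sources used here. The authors deposited counts of reads per gene, without normalization, for 6 libraries. The table also holds their mean normalized count, log2 fold change, its error, statistic, p-value and adjusted p, which were not used. The count columns name the group but no replicate, so libraries are named by total count.

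From the counts, genes were filtered with filterByExpr and 14334 were tested with the quasi-likelihood test of edgeR 4.0.16 (R 4.3.3) after TMM scaling, with Benjamini-Hochberg adjustment and a threshold of 0.05. Standard errors come from the F statistic. The biological coefficient of variation was 7.97%, and replicates differed by more than counting noise (chi-square per gene 7.95 to 27.1). Lengths are exon unions of GENCODE M21, which matched 25086 genes. Promoters are from the RefSeq table of GRCm38.p6, which held 6 of the 10 genes. Named are the 10 genes and, from each pathway list, up to 3 genes per direction with the largest change past the threshold, any in a count of 5 or fewer, and the 3 genes most like *Myc*. *Cdk4*, *Cdk6*, *Rb1*, *Cdkn2d*, *Trp53*, *Skp2*, *Ccnb1*, *Ccnh*, *E2f1*, *E2f2*, *E2f3*, *E2f4*, *E2f6*, *Mxd1*, *Mxi1* and *Mga* were added after their values were seen. Members and lists were chosen with earlier results of these data known. The fits of edgeR, limma-voom and DESeq2 were tried on simulated counts with a dispersion common to all genes. Shares, permutation tests, list counts and the motif search were not tried on simulated data. Alternatives were other scalings, DESeq2 1.42.0, limma-voom 3.58.1, other filters and lengths, a threshold of 0.01, and each library left out in turn. One result of the list of TGFβ response genes is not reported here.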

Additional observations from a re-analysis of the deposited data

How the results depend on the processing

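Of the 10 genes, 6 passed the test under each other scaling, tool and filter on low counts that was tried, 5 at an adjusted p of 0.01, and 5 to 7 with each library left out in turn. *Ccnd1*, *Cdkn1a*, *Cdkn1c*, *Cdkn2a* and *Cdkn2b* passed at 0.05 in all 12 of these alternatives of tool, scaling, filter and library. *Ccnd3* was lost without the vehicle libraries of 31072338 or 29296570 counts or the TGFβ library of 27851677, *Myc* passed without the TGFβ library of 28894151, and *Cdkn2c*, never past the test, ran from -0.10 to 0.022 with a library left out and changed sign without the vehicle library of 29296570. Beside these, 5828 of all 14334 genes tested passed, 5020 of 15392 with DESeq2 and 3595 of 14334 at an adjusted p of 0.01. With a library left out, the count ran from 4489 of 14553 to 5481 of 14565. The median log2 fold change over all genes stayed between -0.02 and 0.01. Without length correction the change in share was -4.91 percentage points for *Ccnd1* and 10.7 for *Cdkn2b*, whose change was 10.8 with *Cdkn2d* in the family, and with the longest transcript it was 4.07 for *Cdkn1a*; the sign was kept in each. The level per kb of the longest transcript and the share with *Cdkn2d* were added after seeing the data. No paired analysis was possible because the columns of counts carry no replicate number, so no replicate block was fitted. With 3 libraries a group, no exact permutation p can go under 0.1, and *Cdkn1c* rests on 42 to 155 counts per library.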
